A study of Homo sapiens with 9 samples.

Results

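The genes of 7 subunits of the SWI/SNF chromatin remodeling complexes were examined in the human T-cell acute lymphoblastic leukemia line DND-41. They are SMARCA4, SMARCA2, PBRM1, ARID1A, ARID1B, SMARCB1 and SMARCC1. Each gene was taken with 25 kb on each side, in hg19, with gene limits rounded to 1 kb, and a peak belonged to a window when it overlapped it by at least 1 bp. The windows add up to 1535 kb and hold 502 of the 183634 peaks in 5 deposited lists. These come from CUT&RUN, in which an antibody directs a micrococcal nuclease fusion to its target and the released DNA is sequenced. H3K27ac, an acetylation found at active enhancers and promoters, was profiled after 100 nM ACBI-1 and after its vehicle, DMSO. BRG1 (the protein made from SMARCA4), RUNX1 (a sequence-specific transcription factor of blood cells) and H3K4me3 (a mark of active promoters) were profiled in cells with no treatment label. The length of treatment is not given in the sources used here. With 1 library per target and condition, differences could not be tested or set against replicate spread. The lists give positions alone, which leaves read depth unknown. The 4 IgG or input libraries were not analysed here.

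SWI/SNF complexes use the energy of ATP to move or evict nucleosomes. Each complex holds a single ATPase, SMARCA4 (BRG1) or SMARCA2 (BRM). In the canonical BAF and PBAF forms the core includes SMARCB1 and SMARCC1. ARID1A and ARID1B are alternative subunits of the canonical BAF form, and PBRM1 is a bromodomain subunit of the PBAF form. ACBI-1 is a degrader molecule that directs the proteins SMARCA4, SMARCA2 and PBRM1 to an E3 ubiquitin ligase. For these 3 genes the protein product is thus a target of the degrader, and the libraries show the chromatin at the gene, not the amount of RNA or protein. Other subunit genes were not analysed here.

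The promoters are shown first, since all 7 gene starts carried H3K4me3 and, in DMSO, H3K27ac. The widest BRG1 and RUNX1 peaks in any window lay at the SMARCA4 start. RefSeq (GRCh38.p14) gave 12 promoters for 6 of the 7 genes, with no entry used for SMARCC1. The 4 printed below are those of both ATPase genes and of SMARCB1, which had BRG1 at the start, and of PBRM1, which had no H3K27ac peak there in ACBI. Each is the outermost RefSeq promoter of its gene, and the 250 bases before the transcript start are given 5′ to 3′ with CG dinucleotides in capitals. Coordinates of these sequences are in GRCh38.p14, while the peaks are in hg19, so no peak was placed on a base.
SMARCA4 (chr19:10960780-10961029, plus strand): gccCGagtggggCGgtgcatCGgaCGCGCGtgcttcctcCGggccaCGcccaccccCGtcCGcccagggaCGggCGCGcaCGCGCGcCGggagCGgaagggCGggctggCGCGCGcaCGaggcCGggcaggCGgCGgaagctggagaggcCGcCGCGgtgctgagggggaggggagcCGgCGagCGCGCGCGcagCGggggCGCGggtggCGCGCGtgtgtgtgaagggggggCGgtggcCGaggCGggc
SMARCA2 (chr9:2015097-2015346, plus strand): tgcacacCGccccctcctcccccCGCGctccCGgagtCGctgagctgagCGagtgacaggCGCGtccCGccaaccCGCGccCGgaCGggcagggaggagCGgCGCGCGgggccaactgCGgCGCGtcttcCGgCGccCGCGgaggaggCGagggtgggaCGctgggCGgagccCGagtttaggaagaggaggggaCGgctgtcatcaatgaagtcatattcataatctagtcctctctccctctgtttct
PBRM1 (chr3:52685914-52686163, minus strand): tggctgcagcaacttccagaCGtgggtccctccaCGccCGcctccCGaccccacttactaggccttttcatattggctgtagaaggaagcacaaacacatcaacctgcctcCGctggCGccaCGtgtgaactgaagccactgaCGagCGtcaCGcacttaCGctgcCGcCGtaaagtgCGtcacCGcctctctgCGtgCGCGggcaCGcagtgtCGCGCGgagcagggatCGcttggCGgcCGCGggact
SMARCB1 (chr22:23786716-23786965, plus strand): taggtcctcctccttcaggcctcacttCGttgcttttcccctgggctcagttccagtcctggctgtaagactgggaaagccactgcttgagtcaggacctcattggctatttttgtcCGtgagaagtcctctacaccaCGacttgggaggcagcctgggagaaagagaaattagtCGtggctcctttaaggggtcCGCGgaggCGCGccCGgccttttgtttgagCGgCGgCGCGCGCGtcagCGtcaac

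The SMARCA4 promoter held 44 of them and was 82.4% G or C, the SMARCA2 promoter held 29 at 68.8%, the PBRM1 promoter held 26 at 63.6% and the SMARCB1 promoter held 16 at 58.0%. The median over all 35116 RefSeq promoters was 11 CG dinucleotides (quartiles 3 and 23) and 58.0% G or C (quartiles 46.4 and 68.0). The SMARCA4, SMARCA2 and PBRM1 promoters lay above the upper quartile of CG dinucleotides, and the SMARCB1 promoter lay between the quartiles. The outermost ARID1B promoter of the table was poorer, with 5 CG dinucleotides at 38.8%, and the other ARID1B promoter held 37 at 76.0%. The cores TGTGGT and TGCGGT, letters that RUNX proteins are known to bind, were searched on both strands over the 300 bases of each entry. Neither occurred in any of the 12 promoters of these genes, against 13.1% and 7.29% of all RefSeq promoters. No match says only that these letters are not in these windows.

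Every one of the 7 gene starts lay under H3K4me3, and every one held RUNX1. The H3K4me3 peak used for each gene is the widest within 2 kb of its start. It measured 2573 bp at SMARCA4 (chromosome 19, 11070628 to 11073200), 4029 bp at SMARCA2 (chromosome 9, 2014448 to 2018476) and 2407 bp at PBRM1 (chromosome 3, 52718730 to 52721136). At the BAF subunit genes it measured 4964 bp for ARID1A (chromosome 1, 27021158 to 27026121) and 2986 bp for ARID1B (chromosome 6, 157098936 to 157101921). At the core subunit genes it measured 1612 bp for SMARCB1 (chromosome 22, 24128687 to 24130298) and 2943 bp for SMARCC1 (chromosome 3, 47821355 to 47824297).

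BRG1 divided the starts. The H3K4me3 peaks of SMARCA4, SMARCA2, SMARCB1 and SMARCC1 held BRG1, and those of PBRM1, ARID1A and ARID1B held none. Of all H3K4me3 peaks that lay in DMSO H3K27ac and were at least as wide as the narrowest of the 7, 46.1% held BRG1 and 73.8% held RUNX1 (n = 5337 peaks). The 4 of 7 with BRG1 and 7 of 7 with RUNX1 are read beside these shares, and 7 genes are too few to set them apart. The BRG1 peak at the SMARCA4 start, at its own gene, measured 638 bp (11071214 to 11071851) and lay wholly inside a RUNX1 peak of 881 bp (11070975 to 11071855). That was the widest BRG1 peak and the widest RUNX1 peak in any of the 7 windows. At SMARCA2, a BRG1 peak of 556 bp (2014904 to 2015459) shared 551 bp with a RUNX1 peak of 591 bp, and a further BRG1 peak of 170 bp lay off RUNX1. The SMARCB1 start had a BRG1 peak of 434 bp, of which 407 bp lay on RUNX1, and the SMARCC1 start had one of 286 bp, all on RUNX1. The RUNX1 peak measured 665 bp (24128870 to 24129534) at SMARCB1 and 613 bp (47823247 to 47823859) at SMARCC1, where a further RUNX1 peak of 225 bp (47822821 to 47823045) lay off BRG1. At ARID1A and ARID1B, RUNX1 covered 619 and 1138 bp of the H3K4me3 peak. The H3K4me3 peak at the ARID1A start held RUNX1 peaks of 265 bp (27021796 to 27022060), 179 bp (27022206 to 27022384) and 175 bp (27024528 to 27024702). The ARID1B start had RUNX1 peaks of 648 bp (157098987 to 157099634) and 490 bp (157099822 to 157100311). At PBRM1 a single RUNX1 peak of 238 bp (52719579 to 52719816) was called.

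**Figure D1:**
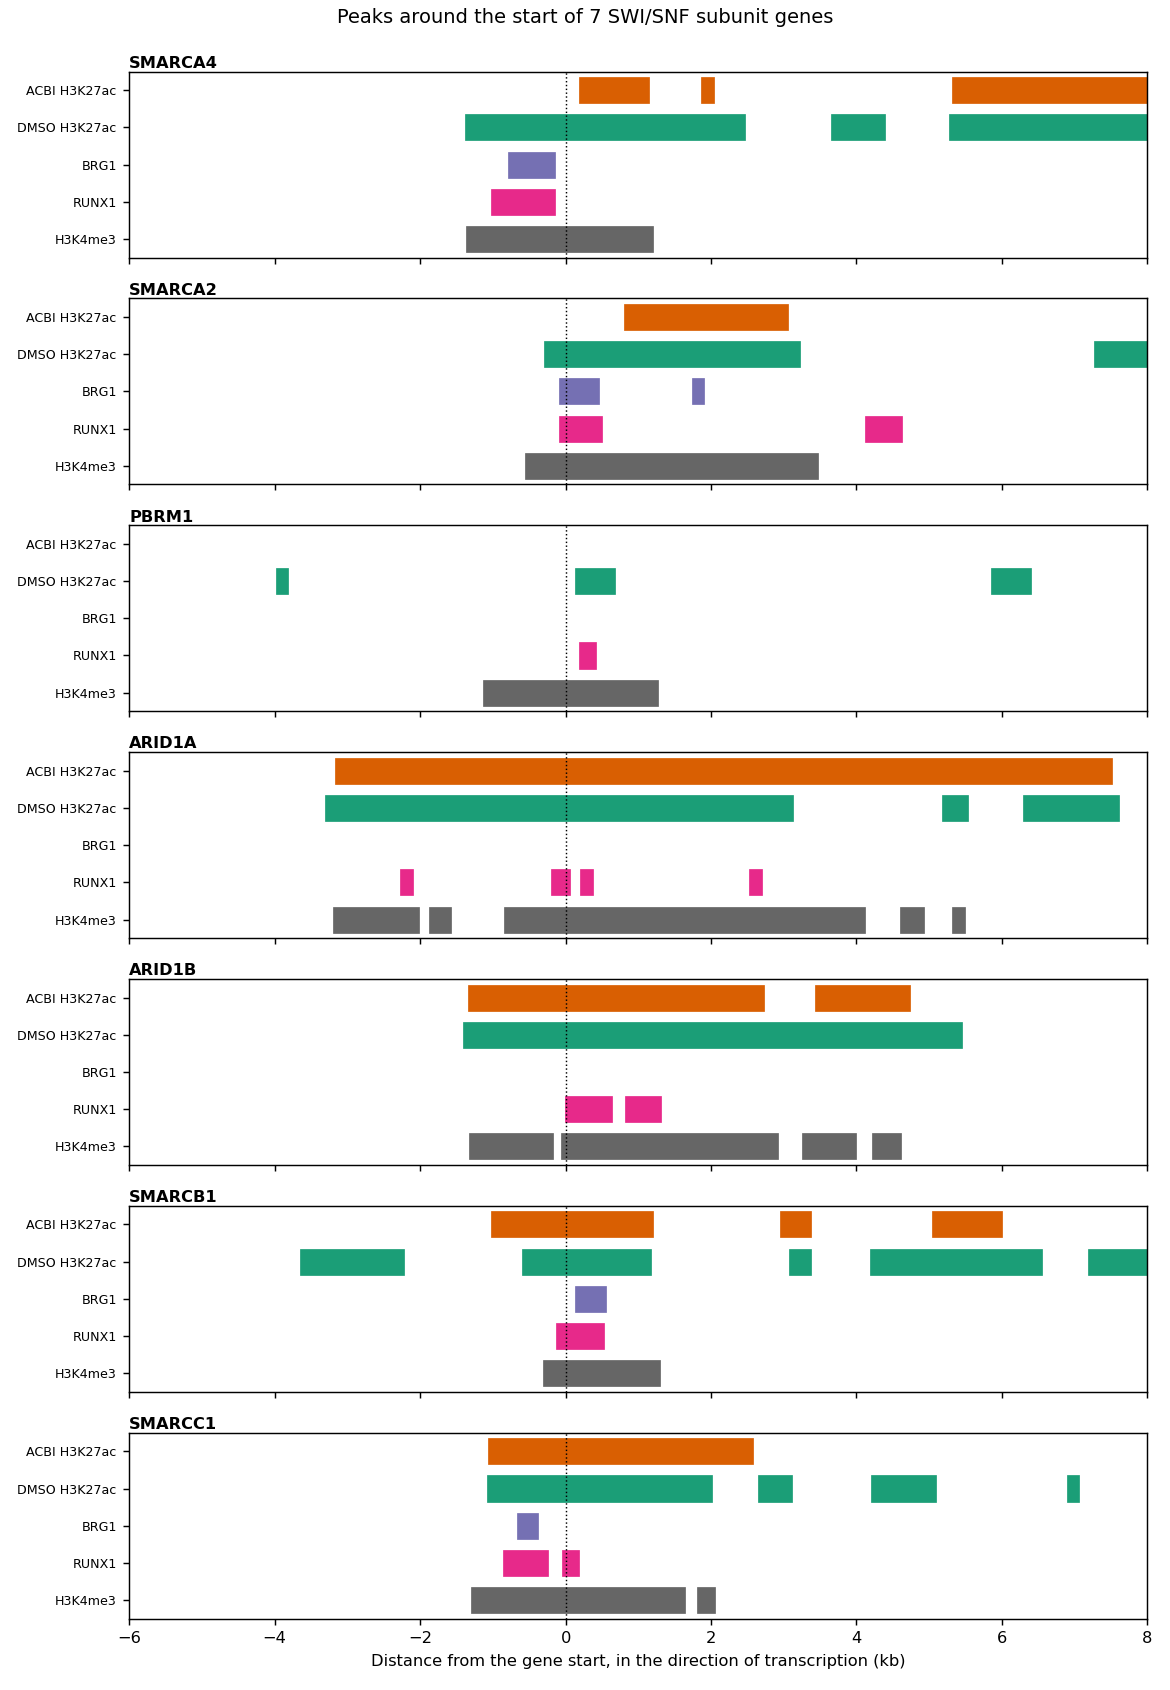
Peaks of the 5 lists from 6 kb before to 8 kb after the start of each gene, drawn in the direction of transcription. The dotted line is the gene start to the nearest kb and bars are peaks, drawn to scale. In ACBI the H3K27ac bar at SMARCA4 and SMARCA2 begins after the widest BRG1 bar and the RUNX1 bar that overlaps it, with a narrower BRG1 bar inside it at SMARCA2. It is missing at PBRM1, and spans the start at the other 4 genes.

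The comparison of ACBI with DMSO asked how H3K27ac differed at these genes after the degrader. At the starts, the genes of the 3 degraded proteins had less H3K27ac in ACBI, and the other 4 genes had about as much or more. Within 2 kb each side of the start of SMARCA4, H3K27ac peaks covered 1090 bp in ACBI and 3385 bp in DMSO. At SMARCA2 they covered 1200 bp in ACBI and 2295 bp in DMSO, and at PBRM1 0 bp in ACBI and 546 bp in DMSO. The ratios of ACBI to DMSO cover were thus 0.32 at SMARCA4, 0.52 at SMARCA2 and 0 at PBRM1. At ARID1A all 4000 bp were covered in both conditions, and at ARID1B 3345 bp in ACBI and 3404 bp in DMSO, a ratio of 0.98. SMARCB1 had 2227 bp in ACBI and 1770 bp in DMSO, a ratio of 1.26, and SMARCC1 had 3073 bp in ACBI and 3086 bp in DMSO.

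Gene limits are known to 1 kb only, so the H3K4me3 peak of each start was used as well, a choice made after the peaks were seen. It also allows a background of other promoters. On the H3K4me3 peak of SMARCA4, H3K27ac covered 956 bp in ACBI and 2573 bp in DMSO, or 37.2% and 100% of the peak. On that of SMARCA2 it covered 2259 bp in ACBI and 3514 bp in DMSO, or 56.1% and 87.2%. On that of PBRM1 it covered 0 bp in ACBI and 546 bp in DMSO, or 0% and 22.7%. The PBRM1 start thus had little H3K27ac even in DMSO, and the nearest ACBI peak lay 8816 bp from its H3K4me3 peak.

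On the H3K4me3 peaks of the other starts, the conditions were close at ARID1B, SMARCB1 and SMARCC1, and ARID1A had more cover in ACBI. ARID1A had 4964 bp in ACBI and 3965 bp in DMSO, and the whole ACBI peak there was wider, at 10689 bp against 6428 bp in DMSO. Cover of the ARID1B H3K4me3 peak was 2796 bp in ACBI and 2986 bp in DMSO. SMARCB1 had 1518 bp in ACBI and 1484 bp in DMSO, and SMARCC1 had 2719 bp in ACBI and 2732 bp in DMSO. On these peaks the ratios were 0.37, 0.64 and 0 for SMARCA4, SMARCA2 and PBRM1, and between 0.94 and 1.25 for the other 4. Over H3K4me3 peaks of at least the same width with DMSO H3K27ac, the median ratio was 0.86 (quartiles 0.61 and 1, n = 5337 peaks).

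SMARCA4 and PBRM1 had under 50% of their DMSO cover in ACBI, 2 of the 7 starts, against 17.9% of those H3K4me3 peaks. PBRM1, 1 of the 7, had none, against 5.64%. ARID1A and SMARCB1, 2 of the 7, had more in ACBI, against 15.3%. The split of 3 genes from 4 rests on 1 library per condition. It depends on how a start is drawn: within 5 kb each side of the start, the ratio was 0.61 for SMARCB1 and 0.64 for SMARCA2. Within 1 kb each side it was 1.25 for SMARCB1 and 0.15 for SMARCA2. In the wide H3K4me3 peaks, BRG1 itself went with a slightly lower ratio, with a median of 0.82 with it and 0.89 without it (n = 2460 and 2877 peaks). Of the 2 starts under 50%, SMARCA4 had BRG1 and PBRM1 had none, and PBRM1 had only 546 bp of DMSO cover. SMARCA2, with BRG1, stood at 0.64 on its H3K4me3 peak, between the quartiles of 0.61 and 1 for the wide H3K4me3 peaks.

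**Figure D2:**
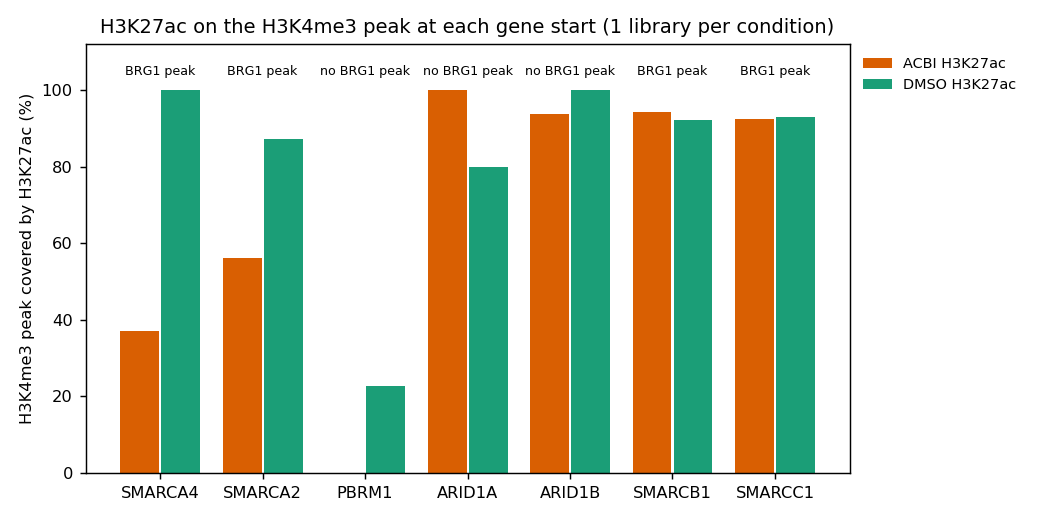
Share of the H3K4me3 peak at each gene start covered by H3K27ac peaks in ACBI (left bar) and DMSO (right bar), in percent, with 1 library per condition and no error bars. SMARCA4 stands at 37.2% in ACBI and 100% in DMSO, while SMARCC1 stands at 92.4% in ACBI and 92.8% in DMSO.

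At both ATPase genes, part of the difference lay over the widest BRG1 peak of the start. At SMARCA4 the DMSO peak (11070616 to 11074467, 3852 bp) covered the whole BRG1 and RUNX1 site, and the ACBI peak (956 bp) began 339 bp after the BRG1 peak. At SMARCA2 the DMSO peak of 3514 bp likewise covered the main BRG1 site, and the ACBI peak of 2259 bp began 341 bp after it. At both genes H3K27ac in ACBI lay on the 3′ side of the main factor site and was not called over it. At SMARCA4 the difference also extended further 3′. After the 956 bp peak, ACBI covered only a further 169 bp (11073867 to 11074035) of that DMSO peak. At SMARCA2 the ACBI peak ended at 2018059, near the end of the DMSO peak at 2018219. At SMARCB1 and SMARCC1 the BRG1 peaks at the start were fully covered in both conditions. Of the 10 BRG1 peaks of the windows on H3K4me3, all in DMSO H3K27ac, 3 had no ACBI H3K27ac, against 25.6% of such BRG1 peaks in the whole list. The third, beside those of the ATPase genes, was a 366 bp peak (chromosome 3, 52570357 to 52570722) beyond the 3′ end of PBRM1. Of the 2 BRG1 peaks off H3K4me3, 0 lacked ACBI H3K27ac, against 20.3%. Of the 19 RUNX1 peaks on H3K4me3, 5 lacked it, against 17.8% of such RUNX1 peaks in the whole list. Of the 4 RUNX1 peaks off H3K4me3 that lay in DMSO H3K27ac, 2 lacked it, against 29.9%.

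The windows held 12 BRG1 and 24 RUNX1 peaks in all. Of these, 5 BRG1 and 10 RUNX1 peaks had their midpoint within 2 kb of a gene start, and 7 BRG1 and 14 RUNX1 peaks lay further away. Of the BRG1 peaks, 8 of 12 (66.7%, exact Clopper-Pearson 95% interval 34.9 to 90.1, counting error only) overlapped RUNX1, against 80.7% in the whole list. The interval includes the whole-list share. Of the RUNX1 peaks, 8 of 24 overlapped BRG1, against 29.8% in the whole list. In peaks per Mb, BRG1 stood at 7.82 in the windows and 6.48 in all 200 kb bins of the genome with at least 5 kb of DMSO H3K27ac. RUNX1 stood at 15.6 in the windows and 17.2 in those bins. The RUNX1 peaks of the windows were narrow, with a median of 252 bp against 402 bp in the whole list, and BRG1 peaks had medians of 282 and 284 bp. RUNX1 peaks lay on H3K4me3 in 79.2% of cases in the windows (19 of 24, 57.8 to 92.9), against 43.0% in the whole list. The windows were chosen around genes whose starts carry H3K4me3, so this share was not read further.

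The ATPase gene SMARCA2 had an internal factor site. A BRG1 peak of 244 bp (2053911 to 2054154) shared 220 bp with a RUNX1 peak of 364 bp, 39 kb into the gene and off H3K4me3. H3K27ac covered both peaks fully in ACBI and in DMSO. A second H3K4me3 peak of 855 bp lay further into SMARCA2 (2158292 to 2159146) with a RUNX1 peak of 203 bp, and H3K27ac covered all of it in both conditions. RefSeq lists 4 promoters for SMARCA2, and they were not matched to this peak. A RUNX1 peak of 504 bp (2019123 to 2019626) was the exception among the 24, with no H3K27ac in ACBI or in DMSO.

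ARID1B, the longest of the genes, also had internal sites. An H3K4me3 peak of 1553 bp (157341708 to 157343260) held a BRG1 peak of 184 bp and, apart from it, a RUNX1 peak of 175 bp. H3K27ac covered 1274 bp of it in ACBI and all 1553 bp in DMSO. A BRG1 peak of 308 bp (157354657 to 157354964) lay off H3K4me3 and off RUNX1, and a RUNX1 peak of 318 bp (157274675 to 157274992) lay off H3K4me3 and off BRG1. Both were fully covered by H3K27ac in both conditions. ARID1A had no BRG1 peak anywhere in its window of 137 kb, where 5 RUNX1 peaks of 175 to 265 bp were called.

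Some factor sites of the windows lay in the flanks, where RefSeq names other genes. PBRM1 has the neighbors STAB1, NT5DC2, UQCC5, GNL3, GLT8D1, SPCS1 and NEK4, and both of its BRG1 peaks lay in the flanks, on RUNX1 and H3K4me3. The one before the PBRM1 start (52739919 to 52740069, 151 bp) was fully covered by H3K27ac in ACBI and in DMSO. The RUNX1 peaks at these PBRM1 flank sites measured 175 bp (52739883 to 52740057) before the start and 222 bp (52570466 to 52570687) beyond the end. The BRG1 peak before the start lay in an H3K4me3 peak of 2613 bp (52738612 to 52741224), the widest of the PBRM1 window, of which H3K27ac covered 2594 bp in ACBI and 2613 bp in DMSO. SMARCB1 neighbors include CHCHD10, MMP11, DERL3 and SLC2A11, and its flanks held a BRG1 peak of 278 bp (24199886 to 24200163) inside a RUNX1 peak of 350 bp. SMARCC1 neighbors include CSPG5 and DHX30, and a BRG1 peak of 151 bp off RUNX1 lay before its start (47844424 to 47844574). ARID1A neighbors include PIGV, and flank RUNX1 peaks of 180 bp (27019718 to 27019897) and 187 bp (27114425 to 27114611) were covered in both conditions. A RUNX1 peak of 175 bp (11052851 to 11053025) before the SMARCA4 start and RUNX1 peaks of 204 bp (24109103 to 24109306) and 508 bp (24181144 to 24181651) in the SMARCB1 flanks lay in DMSO H3K27ac, in part or whole, with no ACBI H3K27ac. No named protein-coding gene lies within 25 kb of SMARCA4, SMARCA2 or ARID1B in the RefSeq table.

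**Figure D3:**
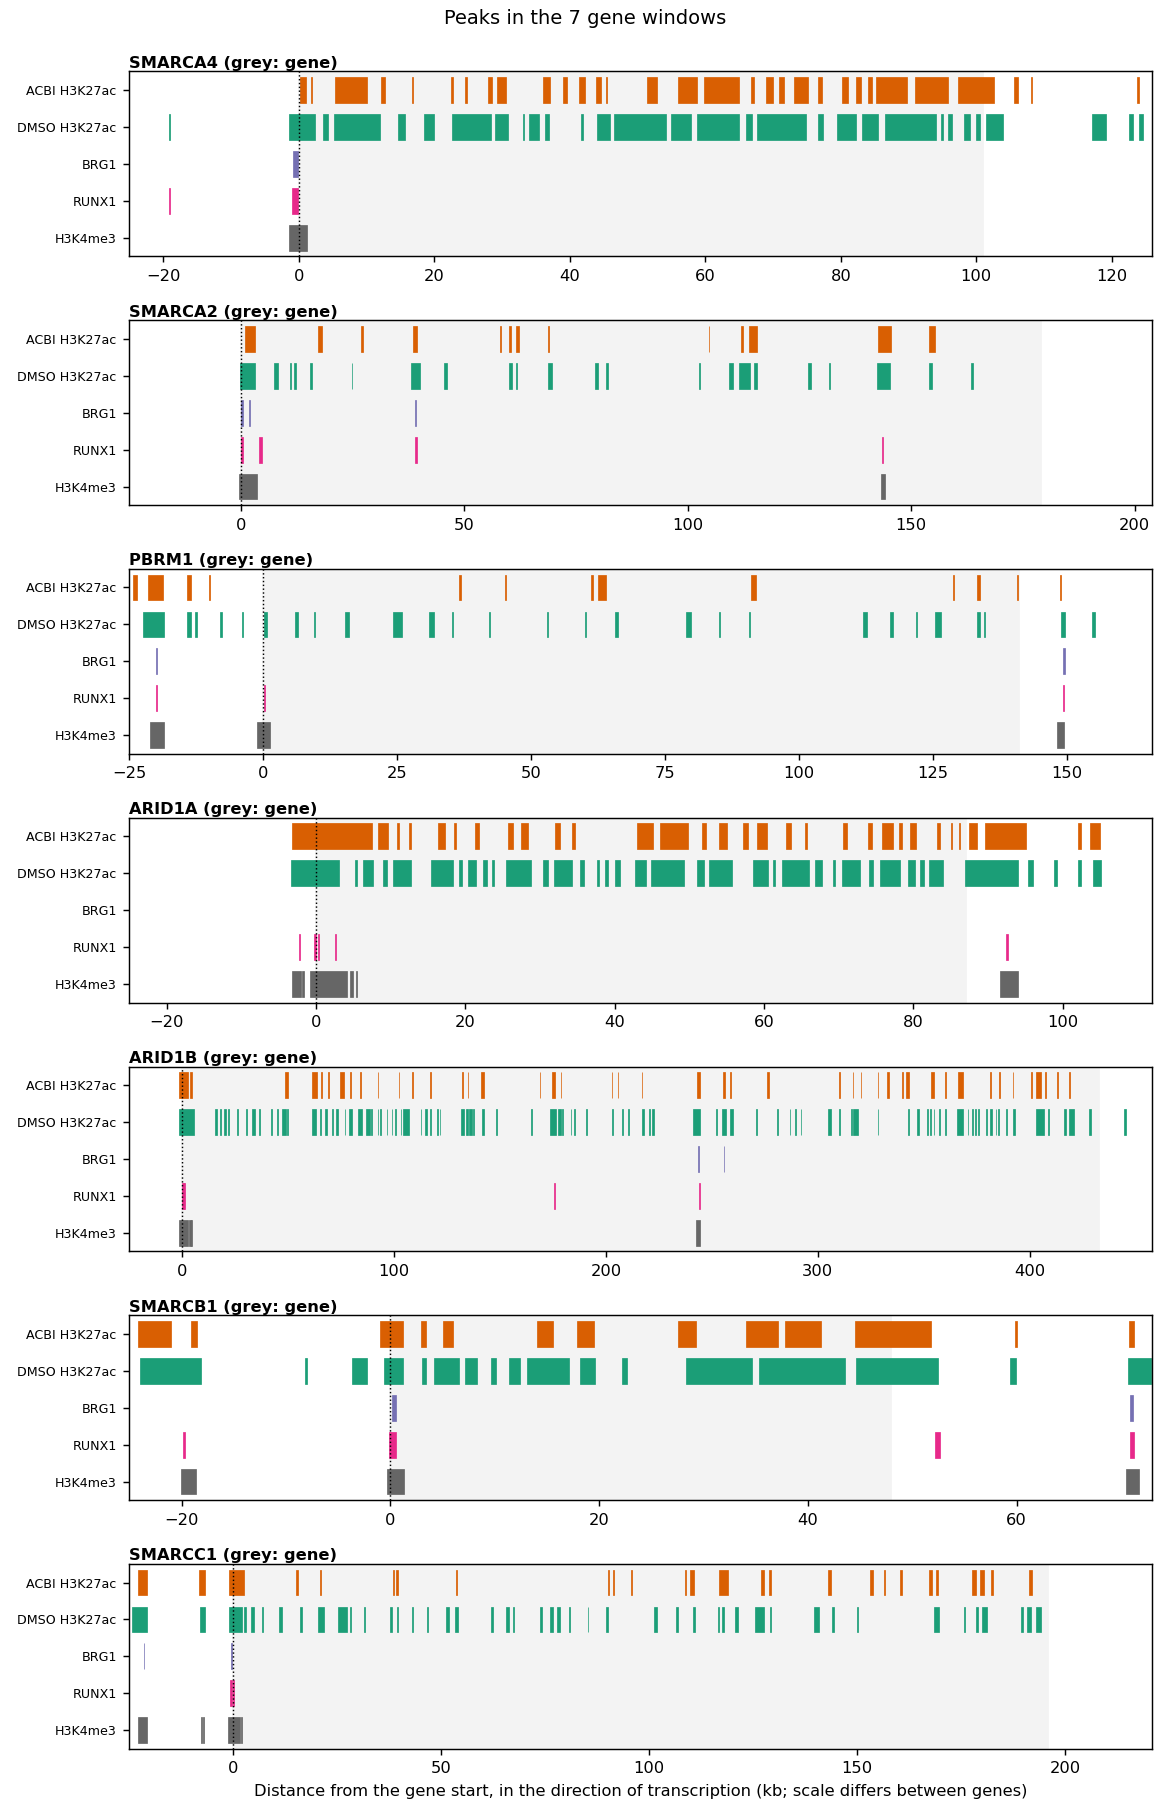
Peaks of the 5 lists in the 7 windows, by distance from the gene start in kb along the direction of transcription. The gene is shaded, the flanks are 25 kb each, peaks narrower than a drawn line appear as a line, and the scale differs between genes. SMARCA4, ARID1A and SMARCB1 are filled with H3K27ac peaks along the gene, while the other 4 genes carry scattered ones.

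By the share of the whole window, flanks included, that H3K27ac peaks covered, the genes fell into dense and sparse ones. In the SMARCA4 window H3K27ac peaks covered 29.7% of the length in ACBI and 47.8% in DMSO, in the ARID1A window 29.1% and 44.0%, and in the SMARCB1 window 27.1% and 46.5%. In the ARID1B window they covered 7.32% in ACBI and 17.0% in DMSO, and in the SMARCC1 window 8.19% and 13.95%. The PBRM1 window had 4.45% in ACBI and 9.18% in DMSO, and the SMARCA2 window had 5.48% and 8.94%. As a share of length, as much DMSO cover as at SMARCA4, ARID1A or SMARCB1 was found in 2.03%, 2.76% and 2.28% of 4785 bins. These are the bins of 200 kb with at least 5 kb of DMSO cover, at fixed positions. The 3 windows are shorter, at 151, 137 and 98 kb, and are placed on genes. The percentages thus compare stretches of unlike length and placement, and say little about how rare such genes are. The widest DMSO peaks of the dense genes measured 8197 bp at SMARCB1 (24164329 to 24172525), 7578 bp at SMARCA4 (11118591 to 11126168) and 7178 bp at ARID1A (27108883 to 27116060). ACBI peaks covered 5232, 1469 and 5509 bp of them. The ARID1A peak lay mostly in the flank beyond the gene end, and it covered all 2474 bp of an H3K4me3 peak there. The widest at ARID1B was the start peak of 6859 bp, while SMARCA2 had one of 3514 bp at its start and SMARCC1 and PBRM1 had ones of 3713 and 3773 bp in the flank before the start.

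Over the whole windows, the difference between ACBI and DMSO was close to that of the whole genome. Peaks covered 188 kb in ACBI and 332 kb in DMSO, a ratio of 0.56, against 0.56 over all peaks. The ratio was 0.43 at ARID1B, 0.48 at PBRM1, 0.58 at SMARCB1, 0.59 at SMARCC1, 0.61 at SMARCA2, 0.62 at SMARCA4 and 0.66 at ARID1A. The median of the 7 was 0.59, beside 0.49 over the 4785 bins (quartiles 0.35 and 0.65). At ARID1B and PBRM1, 2 of 7 windows, the ratio was under 0.5, against 51.3% of bins, and it was above 1 in 0 of 7, against 3.13% of bins. The order of the genes was not that at the starts: SMARCA4, low at its start, was among the highest over its window. For PBRM1 the flanks mattered, with 0.37 in the gene alone.

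**Figure D4:**
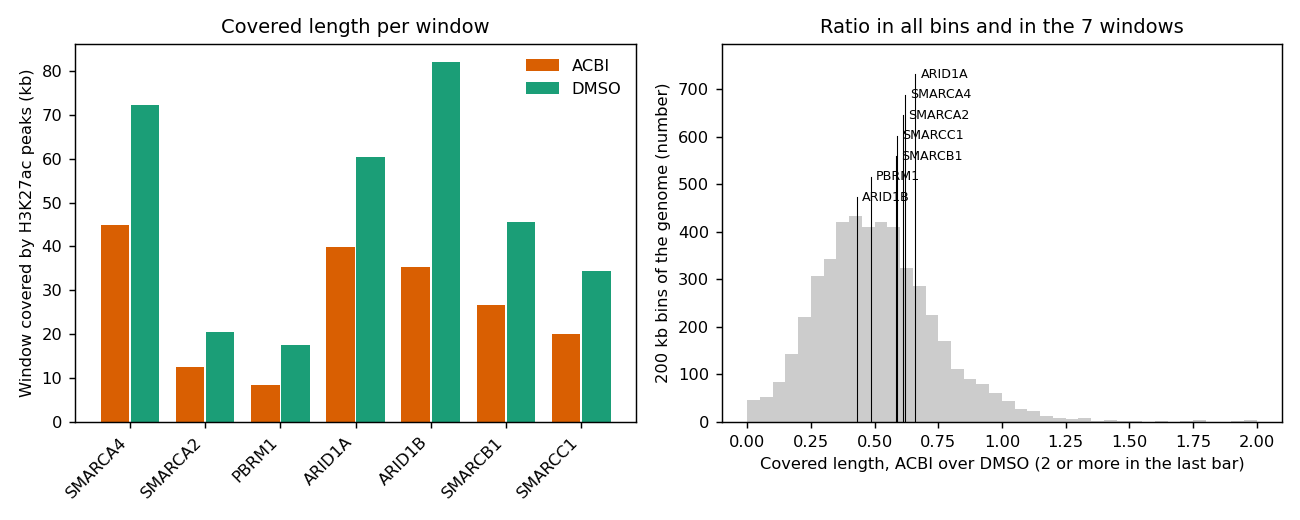
Left, length covered by H3K27ac peaks in each window in ACBI and DMSO, in kb. Right, the ratio of covered length in ACBI to that in DMSO for 4785 bins of 200 kb (grey) with the 7 windows marked; these lie between 0.43 and 0.66, where 39.4% to 76.9% of bins lie lower.

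Peak by peak, 155 of the 270 DMSO peaks in the windows overlapped no ACBI peak (57.4%, 51.3 to 63.4), against 59.1% of all DMSO peaks. They are referred to as lost. Of the 171 ACBI peaks, 48 had no DMSO peak and are called gained (28.1%, 21.5 to 35.4), against 21.4% of all ACBI peaks. The lost share was near the background, and the gained share was above it, with the lower bound of its interval just above 21.4%. That interval treats peaks of the same window as independent, and the gained share differed widely between the genes. Lost peaks were narrow, with a median of 502 bp against 499 bp in the whole list, and kept peaks had a median of 1319 bp against 1642 bp. Among DMSO peaks of 1500 bp or more, 7 of 61 were lost (11.5%, 4.74 to 22.2), against 16.2% in the whole list. Among those under 500 bp, 76 of 92 were lost (82.6%, 73.3 to 89.7), against 86.2%.

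The genes differed in the share lost, and the dense genes had the lowest. Lost were 23 of 27 DMSO peaks at PBRM1 (85.2%, 66.3 to 95.8), 30 of 45 at SMARCC1 (66.7%), 61 of 92 at ARID1B (66.3%) and 13 of 22 at SMARCA2 (59.1%). The counts were 14 of 37 at ARID1A (37.8%), 6 of 17 at SMARCB1 (35.3%) and 8 of 30 at SMARCA4 (26.7%, 12.3 to 45.9). Peak width moved with this: the median width of DMSO peaks was 1513 bp at SMARCA4, 1432 bp at SMARCB1, 996 bp at ARID1A and 550 to 592 bp at the other 4. A lost peak is one that touches no ACBI peak, and ACBI cover differed as well. ACBI peaks covered 27.1% to 29.7% of the dense windows and 4.45% to 8.19% of the other 4. The part of width or of ACBI cover in the shares was not tested. Gained peaks numbered 9 of 13 at PBRM1, 12 of 26 at SMARCC1, 14 of 44 at ARID1B, 4 of 13 at SMARCA2, 5 of 31 at SMARCA4, 4 of 31 at ARID1A and 0 of 13 at SMARCB1.

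The share of DMSO H3K27ac length in the gene body that was also covered in ACBI was lowest of the 7 genes at PBRM1, SMARCC1 and ARID1B. In the PBRM1 gene body, peaks covered 3.93 kb in ACBI and 10.2 kb in DMSO, and 4.47% of the DMSO length was also covered in ACBI. In the SMARCC1 body they covered 13.4 kb in ACBI and 26.3 kb in DMSO, with 14.02% of the DMSO length shared. In the ARID1B body they covered 32.0 kb in ACBI and 78.1 kb in DMSO, with 24.4% shared. The lists also differed the other way. Of the ACBI length in the body, 88.4% at PBRM1, 72.5% at SMARCC1 and 40.3% at ARID1B lay outside DMSO peaks. At the other 4 genes this share was 12.2% to 34.4%, and over all peaks of the genome 20.3%. In the bodies of SMARCA4, SMARCB1, ARID1A and SMARCA2, 49.5%, 49.1%, 42.1% and 40.9% of the DMSO length was covered in ACBI too. Over all peaks of the genome 44.3% was. The whole-genome shares include gene starts and flanks, which the bodies leave out, so they are not a like background. For all 7 genes, 78.3% of the DMSO length was shared at the starts and 35.3% in the bodies. Of the ACBI length, 3.06% at the starts and 33.9% in the bodies lay outside DMSO peaks. Taken over the windows, the shared length was 22.7% of DMSO cover at PBRM1, and 17.1% of the 200 kb bins had less. It was 27.3% at ARID1B, where 25.3% of bins had less, and 29.7% at SMARCC1, where 29.9% had less.

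Most of the 270 DMSO peaks of the windows, kept or lost, lay off H3K4me3, BRG1 and RUNX1, which had 25, 12 and 24 peaks there. The widest lost peaks of each window all did so too, which was not read further. They measured 2676 bp at ARID1B (157203249 to 157205924), 2130 bp at SMARCC1 (47795729 to 47797858), 1938 bp beyond the end of SMARCA4 (11189147 to 11191084) and 1601 bp at PBRM1 (52694154 to 52695754). The others measured 1432 bp before the SMARCB1 start, 1000 bp at SMARCA2 and 848 bp at ARID1A. The PBRM1 peak was the most isolated of these, at 10635 bp from any ACBI peak. The widest gained peaks measured 1986 bp at ARID1B (157173463 to 157175448), 1410 bp at PBRM1 (52656029 to 52657438), 812 bp at SMARCA2 (2032309 to 2033120), 785 bp at ARID1A (27079109 to 27079893), 693 bp at SMARCC1 (47669158 to 47669850) and 670 bp beyond the end of SMARCA4 (11177560 to 11178229). SMARCB1 had none. The ARID1B gained peak lay 234 bp from a DMSO peak.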

How the data were processed

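The 9 libraries are paired-end CUT&RUN of DND-41 cells, per the labels' protocols. Of these 9 samples, 5 had a peak list, and samples were grouped by antibody and treatment in their titles. Each list, as deposited, holds 4 columns of peak position and name, with no signal or score. The submitters' processing notes name hg19, MACS2 and SEACR. RUNX1 peaks came from MACS2, per the file headers, and both H3K27ac lists hold broad peaks called with the same stated settings. Peaks depend on depth and background, which are unknown here, and a library with fewer reads gives fewer and narrower peaks.

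Covered length was computed on merged peaks clipped to each window in Python 3.11.15, with exact intervals from scipy 1.17.1 and plots from matplotlib 3.10.9. The overlap code was tested on simulated intervals and checked against bedtools 2.31.1, with a difference of 0 peaks. Strand came from the RefSeq promoter table, and for SMARCC1 from textbook knowledge. Neighboring genes were taken by name alone from RefSeq, whose build differs.

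The genes, comparisons and alternatives were chosen with earlier results of these data known. Peaks were named by rule: every BRG1 and RUNX1 peak (the 3 widest where a window held over 5) and the widest H3K4me3, DMSO, lost and gained peak of each window. The H3K4me3 peaks at starts and inside SMARCA2 and ARID1B were added after their values were seen.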

Additional observations from a re-analysis of the deposited data

How the results depend on the processing

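No paired analysis was possible because there was 1 library per condition, with the single shared number 2. Intervals cover counting error of peaks only, and depth is unknown. The share of DMSO peaks lost in the windows was 78.1% with 50% of the peak covered (75.6% in the whole list), 45.9% when an ACBI peak within 1 kb counted as kept (51.0%) and 39.2% with equal numbers of the widest peaks (40.7%). It stayed within the interval of 57.4% with flanks of 0, 10 or 50 kb and with peaks of at least 500 bp (60.7%, against 55.2% in the whole list). Leaving out each gene in turn gave 52.8% to 61.3%, and ratios of covered length of 0.54 to 0.61. Under that choice of widest peaks, the ratio over the windows was 0.65 and the median of the genes 0.69 (0.62 over all peaks). The other flanks and the minimum width moved these ratios by less than 1.1 times. PBRM1 depended most on the setting, at 0.37 in the gene only, 0.34 with 10 kb each side and 0.69 with equal numbers of the widest peaks. Other limits for the starts than 2 kb each side were chosen after seeing the data, and on the H3K4me3 peaks the ratios are those given with them. Within 1 kb each side, the ratio of ACBI to DMSO cover was 0.41 at SMARCA4, 0.15 at SMARCA2, 0 at PBRM1, 1 at ARID1A, ARID1B and SMARCC1 and 1.25 at SMARCB1. Within 5 kb it was 0.25, 0.64 and 0 at the first 3, 1.27 at ARID1A and 0.84 at both ARID1B and SMARCC1. The share of BRG1 peaks on RUNX1 was 66.7% with 50% covered and 75% within 1 kb.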
